A study of Homo sapiens with 12 samples.

Results

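The HOX genes of clusters A to D were followed in 12 RNA-seq libraries of NCCIT cells, a human embryonal carcinoma line, in which activating or repressive dCas9 fusions had been directed to LTR5HS, the long terminal repeats of the youngest HERVK endogenous retroviruses. HOX genes were taken by name from a count table of 26641 genes, and 38 were analysed, 10 in cluster A, 10 in B, 9 in C and 9 in D. HOX genes encode homeodomain transcription factors that give cells their place along the head-to-tail axis. Within each cluster, genes of low paralog number lie at the 3′ end and act anteriorly and early, and genes of high paralog number lie at the 5′ end and act posteriorly and late. In pluripotent cells the clusters are largely held silent by Polycomb proteins and open in order during differentiation, for which retinoic acid is a classical inducer.

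Each of the 6 lines carried a doxycycline-inducible fusion, dCas9-VPR (CRISPRa, a strong activation domain) or dCas9-KRAB (CRISPRi, a repressor domain), together with a CARGO array, in which many guide RNAs are encoded in tandem. All lines were treated with doxycycline for 4 days. The LTR5HS Sp array pairs LTR5HS guides with the scaffold of S. pyogenes, which the dCas9 used here can bind, and its lines are called recruitment. The LTR5HS Sa array holds the same targeting sequences on a scaffold from S. aureus that this dCas9 does not bind, the nontarget Sp array holds guides with no match in the human genome, and both served as controls. Each line gave 2 replicate libraries, described as independent biological replicates, so a fusion has 2 recruitment and 4 control libraries. Every array was introduced by transposon into 1 line per fusion, and the recruitment effect cannot be told apart from other differences of that line.

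Library totals lay between 13601701 and 69797411 counts, the highest in dCas9-KRAB nontarget Sp replicate 2, and a floor of 3 counts was worth between 0.0462 and 0.233 CPM (counts scaled to the effective library size), depending on the library. Intervals and floors cover counting error only. Replicates of a line correlated with Pearson's r between 0.986 and 0.992 over log2 CPM of genes, which are not independent replicates. CACNA2D2, a gene near an LTR5HS, served to check the labels and averaged 839 CPM with dCas9-VPR recruitment, 46.1 in its controls, 14.8 with dCas9-KRAB recruitment and 64.4 in its controls. All 9 embryonal carcinoma markers were detected in every library, the lowest value being 1.05 CPM for NANOG. In bulk RNA, fewer cells of a type and less RNA per cell cannot be told apart.

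The 38 genes were placed on GRCh38 with GENCODE 44. The HOXA genes analysed spanned chr7:27100354-27200091, the HOXB genes chr17:48528526-48728750, the HOXC genes chr12:53938831-54056030 and the HOXD genes chr2:176092721-176190907. Of the 12 LTR5HS guides, each 16 bases long, none had an exact match followed by NGG within any cluster or 100 kb to either side. The nearest stretch of 1 kb with at least 2 different guides lay 541.7 kb from the HOXA genes, at chr7:27741808-27742292 in an intron of TAX1BP1, and held 4 guides. For HOXC the nearest such stretch lay 1278 kb away, for HOXB 2244 kb away, and for HOXD 5829 kb away in an intron of MYO3B. Guide matches are not restricted to LTR5HS, since related repeats share these sequences, and binding was not measured here.

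Promoter sequences, from 250 bases before to 50 after the start, were found in RefSeq (GRCh38.p14) for 20 of the 38 genes. Almost all were of HOXA and HOXD, with only HOXB1 from HOXB and only HOXC4 and HOXC5, which share a single window, from HOXC. None of the 20 held a match of any guide with 3 mismatches or fewer before NGG, against 0.282% of 27305 promoters. At so low a share, 0 of 20 does not set these promoters apart. HOX promoters are known for their density of CpG, the dinucleotide at which DNA is methylated, and the 20 had a median of 22.5 CpG, against 14 over all promoters. The 4 promoters printed here show that range beside the outcome described further on, with every CG in capitals. HOXA13 had the most CpG of the 20 (44) and HOXD4 the fewest (4), and both genes rose with CRISPRa, as did HOXD11 (27). HOXA7 (31) did not pass the test, although both its recruitment libraries lay above all controls. A relation between CpG and the change was not tested. The 4 sequences are given 5′ to 3′ on the strand of the gene and lie at chr2:176107030-176107329 on the plus strand (HOXD11), chr2:176151300-176151599 on the plus strand (HOXD4), chr7:27200042-27200341 on the minus strand (HOXA13) and chr7:27156626-27156925 on the minus strand (HOXA7).
HOXD11: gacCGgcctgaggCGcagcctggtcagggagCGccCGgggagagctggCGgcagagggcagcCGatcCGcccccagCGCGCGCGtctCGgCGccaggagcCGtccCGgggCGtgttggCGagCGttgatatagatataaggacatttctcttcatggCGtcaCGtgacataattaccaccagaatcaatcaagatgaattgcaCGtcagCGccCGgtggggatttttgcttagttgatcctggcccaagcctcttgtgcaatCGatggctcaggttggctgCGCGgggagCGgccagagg
HOXD4: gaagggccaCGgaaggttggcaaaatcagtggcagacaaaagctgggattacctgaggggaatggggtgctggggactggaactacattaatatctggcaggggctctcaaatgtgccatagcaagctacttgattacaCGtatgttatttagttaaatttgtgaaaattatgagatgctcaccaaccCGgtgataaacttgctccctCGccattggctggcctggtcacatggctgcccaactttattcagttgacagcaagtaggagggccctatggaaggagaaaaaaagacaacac
HOXA13: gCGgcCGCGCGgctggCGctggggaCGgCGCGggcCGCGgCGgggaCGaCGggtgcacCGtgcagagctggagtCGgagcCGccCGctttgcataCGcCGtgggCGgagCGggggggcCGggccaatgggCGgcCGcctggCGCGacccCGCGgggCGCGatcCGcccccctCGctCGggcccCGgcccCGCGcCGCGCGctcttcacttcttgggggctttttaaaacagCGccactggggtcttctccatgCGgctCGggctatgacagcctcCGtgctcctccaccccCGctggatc
HOXA7: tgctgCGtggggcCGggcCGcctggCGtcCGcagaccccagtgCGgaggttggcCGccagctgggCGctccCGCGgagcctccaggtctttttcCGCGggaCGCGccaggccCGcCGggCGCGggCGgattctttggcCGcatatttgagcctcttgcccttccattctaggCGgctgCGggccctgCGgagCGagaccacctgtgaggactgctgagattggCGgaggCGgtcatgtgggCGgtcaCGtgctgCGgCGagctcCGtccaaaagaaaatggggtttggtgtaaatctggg

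The letters AGGTCA, a core motif of retinoic acid receptors, were searched on both strands and occurred in 0 of the 20 HOX promoters and in 13.9% of all. TGATNNAT, a sequence bound by HOX proteins with PBX cofactors, occurred in 3 of the 20 (15%), among them HOXD11, and in 7.6% of all. TATAAA occurred in 4 of the 20 (20.0%) and in 12% of all. These matches describe the windows and are not evidence of binding.

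In control cells the HOX genes were low, and the anterior and central genes of clusters B, C and D led. Compared per length, as TPM (counts scaled by gene length and library) averaged over the 8 control libraries, HOXB2 (7.73 TPM), HOXD4 (7.34), HOXB3 (6.33), HOXC4 (4.20) and HOXB7 (3.65) were highest, followed by HOXC6 (1.15), HOXC9 (1.11) and HOXD13 (1.06). The ranges of HOXB2 (5.15 to 13.6 TPM), HOXD4 (5.59 to 10.1) and HOXB3 (3.49 to 13.5) over those libraries overlapped, so their order is not resolved. Nor is the order of the lower genes: HOXC6 ranged from 0.0659 to 4.44 TPM, with a mean of 2.14 ± 1.98 TPM (SD, n = 4) in dCas9-VPR controls and 0.166 ± 0.118 TPM (n = 4) in dCas9-KRAB controls. All other HOX genes averaged below 1 TPM. With dCas9-VPR recruitment the order was different, and posterior genes stood beside HOXD4 at the top. HOXD4 averaged 42.6 ± 5.52 TPM (SD, n = 2), HOXD11 40.9 ± 12.2, HOXD9 27.2 ± 10.2, HOXD10 27.1 ± 9.17, HOXB9 26.1 ± 6.57 and HOXA11 25.2 ± 5.06. HOXB2, at 7.47 ± 0.0474 TPM, then ranked 10.

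**Figure D1:**
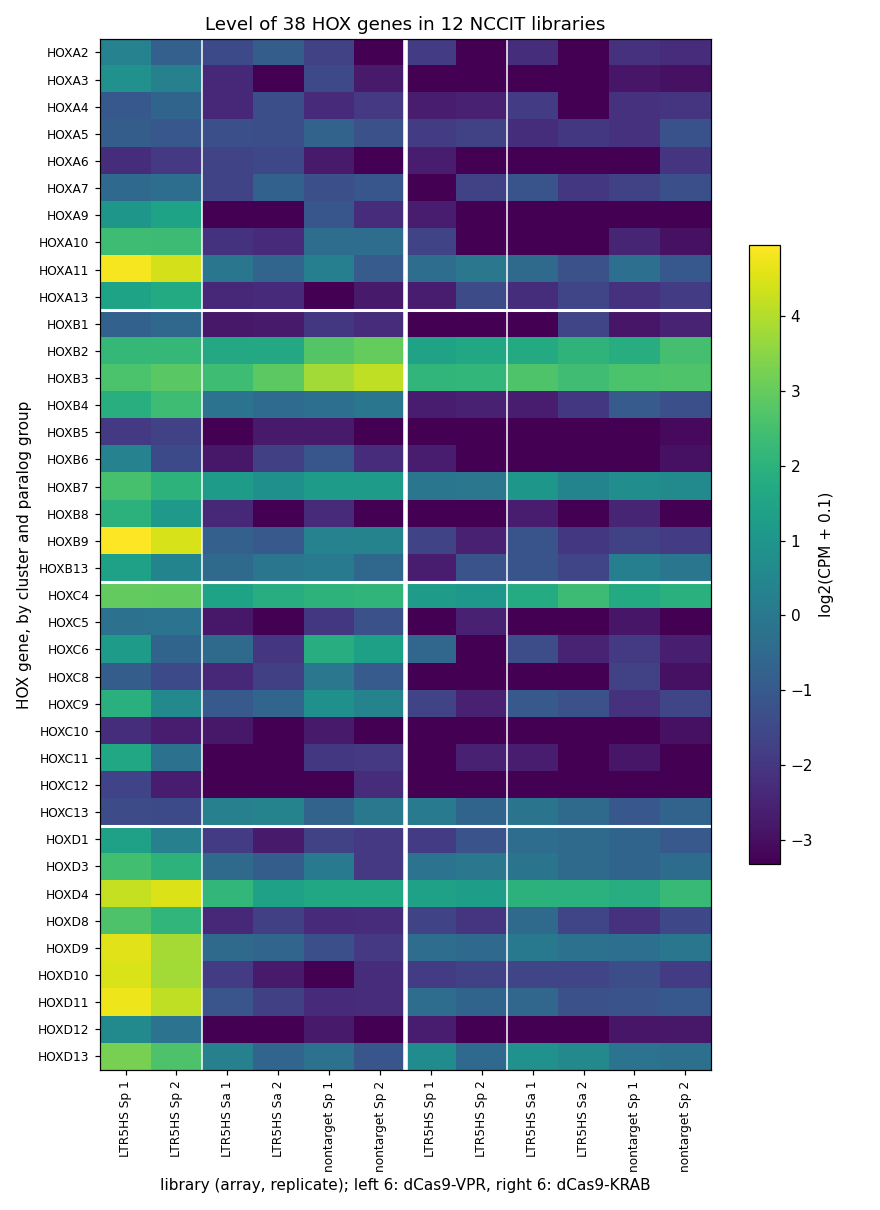
Level of the 38 HOX genes (rows, by cluster and paralog group) in the 12 libraries (columns, array and replicate), as log2(CPM + 0.1), brighter for higher. The first 2 columns, dCas9-VPR recruitment, are brighter than the other 10 for most HOXD genes and for HOXA11 and HOXB9, while HOXB2, HOXB3 and HOXC4 are seen in every library.

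With CRISPRa, the summed level of the 38 genes was 237 and 179 CPM in the recruitment libraries, against 27.2, 26.8, 46.1 and 46.7 CPM in the controls (LTR5HS Sa replicates 1 and 2, then nontarget Sp replicates 1 and 2, the order used for dCas9-VPR controls from here on). The sum was thus 5.67 times higher, as a ratio of means, and the groups did not overlap. HOXD summed to 5.43 ± 1.5 CPM (SD, n = 4) in the controls and 101 ± 22.9 CPM (n = 2) with recruitment, 18.6 times as much, and HOXA to 2.63 ± 0.638 and 39.2 ± 4.71 CPM, 14.9 times as much. The ratios of the other clusters were lower, 2.54 for HOXB (52.9 ± 8.74 CPM with recruitment) and 1.92 for HOXC (15 ± 4.75 CPM). HOXA11 alone averaged 24.9 CPM of the HOXA sum with recruitment. By position, paralog groups 9 to 13 were 21.8 times higher and groups 4 to 8 were 3.83 times higher. HOXA11, HOXB9, HOXD9, HOXD10 and HOXD11, averaging 18.2 to 26.3 CPM each with recruitment, dominated the posterior sum. The posterior genes HOXC10, HOXC12 and HOXC13 averaged 0.0817, 0.137 and 0.271 CPM there. Groups 1 to 3, at 20.2 ± 2.16 against 17.2 ± 8.14 CPM, differed by less than the spread of the controls. HOXB2 and HOXB3, at 5.14 and 10.9 CPM in the controls and 4.47 and 6.49 CPM with recruitment, dominated that sum. They also made up most of the HOXB sum in the controls. For the other 5 anterior genes, HOXA2, HOXA3, HOXB1, HOXD1 and HOXD3, both recruitment libraries were above all controls. For HOXA2 the closest values were 0.479 and 0.447 CPM. The HOXD genes made up 49.4% and 47.3% of all HOX CPM in the recruitment libraries and between 8.90% and 27.6% in the dCas9-VPR controls. These sums are given without a test.

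**Figure D2:**
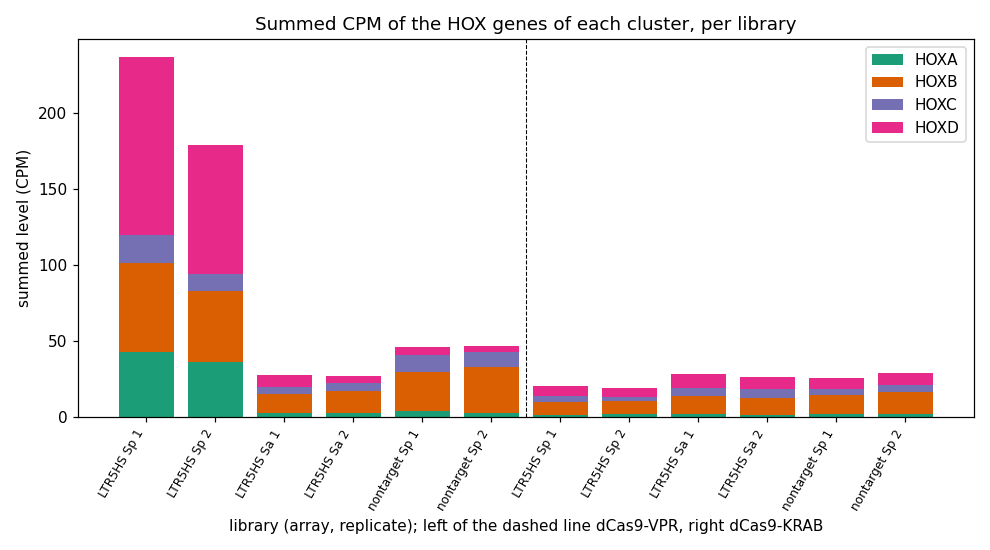
Summed CPM of the HOX genes of each cluster (stacked colours) in each of the 12 libraries, with a linear axis from 0. The 2 dCas9-VPR recruitment libraries reach 237 and 179 CPM, and the other 10 stay between 18.8 and 46.7 CPM.

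Every HOX gene had at least 1 count in the dCas9-VPR libraries, so that all 38 could be compared without a filter. For 28 of them both recruitment libraries were above all 4 controls, against 22.1% of all detected genes, and for 1, HOXC13, both were below, against 19.2%. The 28 were 9 of 9 in cluster D, 8 of 10 in A, 7 of 10 in B and 4 of 9 in C. Among posterior genes they were 13 of 16, among central genes 10 of 15 and among anterior genes 5 of 7. No count floor was applied, and 5 of the 28 (HOXA2, HOXA4, HOXB1, HOXB5 and HOXC10) were too low for the test below. HOXC10 held 2 and 1 counts with recruitment and up to 1 in a control library. HOXA2 held 9 counts in recruitment replicate 2 and also 9 in LTR5HS Sa replicate 2, so only library size separated them.

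By the edgeR quasi-likelihood test with Benjamini-Hochberg adjustment over all genes, 23 HOX genes passed an adjusted p of 0.05 with CRISPRa, 22 higher and 1 lower. The share over all genes tested was 28.0%, 15.7% higher and 12.3% lower. Of the 38, 28 HOX genes were tested, and 12 of those passed the count filter through the recruitment libraries alone, where they were high. Of the 16 that also passed it in the controls by themselves, 11 rose and 1 fell, beside 13.9% of such genes overall that rose. The 12 were HOXA3, HOXA7, HOXA9, HOXA13, HOXB8, HOXC5, HOXC11, HOXD1, HOXD8, HOXD10, HOXD11 and HOXD12, and 11 of them rose. The filter favoured a rise in those 12, so their calls are not separate evidence of it. Among the genes tested, 9 of 9 HOXD, 5 of 6 HOXA, 5 of 7 HOXB and 3 of 6 HOXC genes rose. These counts include the 12, among them HOXD1, HOXD8, HOXD10, HOXD11 and HOXD12, and so do not rank the clusters. Of the HOXD genes, HOXD3, HOXD4, HOXD9 and HOXD13 also passed the filter in the controls by themselves.

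**Figure D3:**
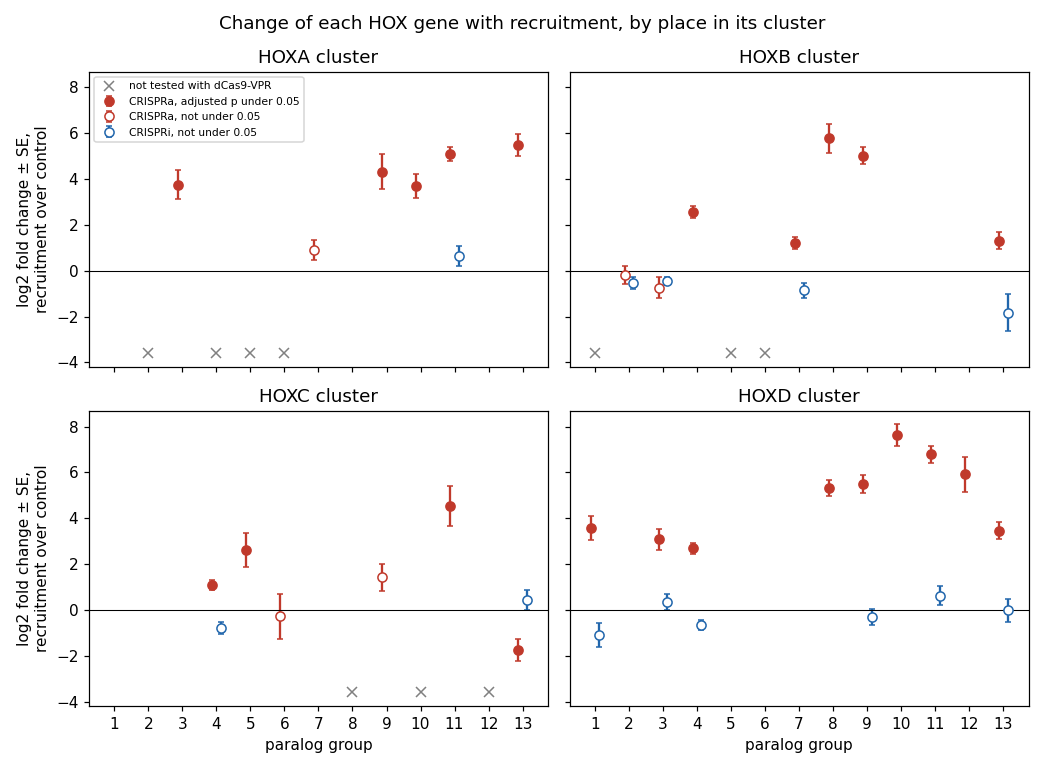
Fitted log2 fold change with its SE (edgeR), recruitment over control, against paralog group in each cluster, red for CRISPRa and blue for CRISPRi, filled where the adjusted p was under 0.05 and with a grey cross where a gene was not tested with dCas9-VPR. In HOXD all 9 red points lie above 0 and the highest is paralog group 10 at 7.63, while the blue points of that cluster lie between -1.08 and 0.63 and no blue point in any cluster is filled.

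The 5′ genes of HOXD, which pattern limbs, digits and the urogenital tract, rose with CRISPRa. HOXD10 was 22.5 and 13.9 CPM with recruitment and 0.177, 0.0497, 0 and 0.105 CPM in the controls. HOXD11, which acts in the forearm and kidney, was 26.9 and 17.7 CPM against 0.354, 0.199, 0.103 and 0.105 CPM. Both were near the count floor in every control library and far above it in both recruitment libraries, with log2 fold changes of 7.63 ± 0.46 (SE, adjusted p = 1.43e-05) and 6.79 ± 0.36 (8.68e-06). Without LTR5HS Sa replicate 1 the fitted value of HOXD10 was 8.31. The annotation gives HOXD10 (chr2:176108790-176119937) and HOXD11 (chr2:176104216-176109754) overlapping exons on the same strand, and how the counting shared such reads is not given in the sources used here.

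HOXD9 was 24.1 and 14.1 CPM with recruitment against 0.620, 0.547, 0.309 and 0.158 CPM, a log2 fold change of 5.51 ± 0.39. HOXD13, the most 5′ gene, whose human mutations cause synpolydactyly, was 9.43 and 6.12 CPM against 1.11, 0.547, 0.772 and 0.368 CPM (3.45 ± 0.37). It had the highest control level per length of the 5 posterior HOXD genes (0.871 ± 0.42 TPM in the dCas9-VPR controls, n = 4) and the smallest log2 change among them. HOXD12 had 41 counts in the recruitment libraries and 1 in the controls, a ratio of 90.1 with a counting interval (95%) from 15.3 to 3643. In CPM it was 1.43 and 0.798 against 0, 0, 0.0515 and 0, and its fitted log2 fold change, 5.91 ± 0.75, became 7.47 without nontarget Sp replicate 1, which holds that count.

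The 3′ genes of HOXD also rose. HOXD4, a central gene of paralog group 4, was 18.6 and 22.6 CPM with recruitment against 4.38, 2.54, 2.93 and 3.0 CPM, a log2 fold change of 2.68 ± 0.23 (adjusted p = 8.99e-05). HOXD8 was 6.18 and 4.25 CPM against 0.0885, 0.199, 0.103 and 0.105 CPM (5.34 ± 0.35). The gain of HOXD8 was thus close to that of its 5′ neighbour HOXD9 and that of HOXD4 lower, although the difference between genes was not tested. HOXD3 was 5.40 and 3.99 CPM against 0.620, 0.447, 0.978 and 0.158 CPM (3.08 ± 0.46). HOXD1, the 3′ end of the cluster, was 2.54 and 1.12 CPM against 0.177, 0.0497, 0.206 and 0.158 CPM (3.58 ± 0.51), and 2.88 without LTR5HS Sp replicate 1. Both recruitment libraries lay above all controls for each of these genes.

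In HOXA the posterior genes rose. HOXA11 (chr7:27181157-27185232), a partner of HOXD11 in forearm and kidney, was 28.3 and 21.5 CPM with recruitment against 0.841, 0.547, 1.08 and 0.421 CPM, a log2 fold change of 5.10 ± 0.30 (adjusted p = 1.26e-05). HOXA13, which patterns digits and hindgut, was 2.70 and 3.24 CPM against 0.0885, 0.0994, 0 and 0.0526 CPM (5.47 ± 0.48). Neither gene overlapped between groups. HOXA10, a gene of uterus and kidney, was 5.07 and 5.05 CPM against 0.133, 0.0994, 0.669 and 0.684 CPM (3.70 ± 0.54), so the control lines differed from each other as well. HOXA9, known in blood progenitors and leukaemia, was 1.98 and 2.71 CPM against 0, 0, 0.360 and 0.105 CPM (4.33 ± 0.76). Its value was 5.92 without nontarget Sp replicate 1, since the LTR5HS Sa libraries held 0 counts.

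Of the anterior and central HOXA genes, HOXA3, a gene of the pharyngeal arches, rose from 0.0885, 0, 0.257 and 0.0526 CPM to 1.71 and 1.12 CPM, by 3.76 ± 0.65 (adjusted p = 0.0036), or 4.69 without nontarget Sp replicate 1. HOXA7 was 0.606 and 0.691 CPM against 0.221, 0.497, 0.309 and 0.368 CPM and did not pass (adjusted p = 0.149), though its groups did not overlap. HOXA2, HOXA4, HOXA5 and HOXA6 were too low to be tested. HOXA2 and HOXA4 held 30 and 17 counts in the 2 recruitment libraries against 19 and 13 in the 4 controls, HOXA5 15 against 29 and HOXA6 5 against 11. These are sums over unequal numbers of libraries. Scaled to effective library size, the ratio of recruitment to control was 3.47 for HOXA2 (95% counting interval 1.89 to 6.52), 2.87 for HOXA4 (1.31 to 6.43), 1.14 for HOXA5 (0.566 to 2.19) and 0.999 for HOXA6 (0.272 to 3.12).

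In HOXB, HOXB4, HOXB7, HOXB8, HOXB9 and HOXB13 rose, and HOXB2 and HOXB3 did not pass the test. HOXB9 (chr17:48621156-48626358) rose to 30.9 and 21.8 CPM from 0.487, 0.398, 1.18 and 1.21 CPM, with a log2 fold change of 5.02 ± 0.37 (adjusted p = 3.95e-05). Its neighbour HOXB8 rose to 3.91 and 2.13 CPM from 0.0885, 0, 0.103 and 0 CPM (5.77 ± 0.63), and HOXB4, used to expand blood stem cells, rose to 3.64 and 5.16 CPM from 0.797, 0.646, 0.721 and 0.841 CPM (2.55 ± 0.26). HOXB2 and HOXB3 act in hindbrain segments. HOXB3 was 6.01 and 6.97 CPM against 5.09, 7.16, 13.8 and 17.6 CPM, a log2 fold change of -0.73 ± 0.46 (adjusted p = 0.279). HOXB2 was 4.47 and 4.47 CPM against 3.05, 3.08, 6.54 and 7.89 CPM, -0.19 ± 0.41. For HOXB2 the recruitment libraries lay between the 2 control lines, and for HOXB3 they lay within the range of the LTR5HS Sa line and below the nontarget Sp line.

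HOXB7 rose to 5.79 and 3.94 CPM from 2.21, 1.69, 2.26 and 2.26 CPM, by 1.21 ± 0.24 (adjusted p = 0.0073, and 0.0998 without LTR5HS Sp replicate 1). HOXB13, the most posterior gene of HOXB and a prostate factor, was 2.54 and 1.22 CPM against 0.620, 0.845, 0.978 and 0.578 CPM, by 1.32 ± 0.38 (0.0327). Its call was lost without LTR5HS Sp replicate 1 (log2 fold change 0.71, adjusted p = 0.369), without LTR5HS Sa replicate 1 (0.0716) and without nontarget Sp replicate 2 (0.0659). The call of HOXB13 was also lost by the DESeq2 Wald test, with the nontarget Sp libraries alone as control, and with counts thinned to the lowest library total. HOXB1, HOXB5 and HOXB6 were not tested, with 20, 7 and 26 counts in the 2 recruitment libraries against 7, 2 and 14 in the 4 controls. Their scaled ratios were 6.28 (2.55 to 17.6), 7.69 (1.46 to 75.9) and 4.08 (2.05 to 8.45). The annotation places exons of HOXB3 over those of HOXB4 and HOXB6 on the same strand, so their counts are uncertain.

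HOXC had the fewest genes that rose. HOXC4 rose to 7.66 and 7.55 CPM from 2.70, 3.48, 4.01 and 4.15 CPM, by 1.10 ± 0.21 (adjusted p = 0.0063, and 0.0505 without LTR5HS Sp replicate 1). Its annotated exons overlap those of HOXC6 on the same strand, so its counts are uncertain. HOXC11, a hindlimb gene, was 2.98 and 0.745 CPM against 0, 0, 0.154 and 0.158 CPM (4.53 ± 0.86), and replicate 1 of the recruitment line decided its size: 3.23 without that library (adjusted p = 0.0891) and 5.21 without replicate 2. HOXC5 was 0.772 and 0.798 CPM against 0.0443, 0, 0.154 and 0.316 CPM (2.61 ± 0.74, adjusted p = 0.0308). Without nontarget Sp replicate 2 it was 3.49 (0.012), and the call was lost without either recruitment library (0.133 and 0.144), without LTR5HS Sa replicate 1 (0.0626) or without nontarget Sp replicate 1 (0.0508). The DESeq2 Wald test did not call HOXC5 either.

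HOXC13, a hair and nail gene, was the one HOX gene that fell, to 0.276 and 0.266 CPM from 1.11, 1.19, 0.515 and 0.894 CPM. Its log2 fold change was -1.75 ± 0.49 (adjusted p = 0.0300), and it rested on 5 counts in each recruitment library. The call was lost without either recruitment library (adjusted p = 0.155 and 0.165), without either LTR5HS Sa library (0.0621 and 0.0527), with the nontarget Sp libraries alone as control and by the DESeq2 Wald test. HOXC6 and HOXC9, thoracic genes whose annotated exons overlap, did not pass. HOXC6 was 2.21 and 0.532 CPM against 0.620, 0.149, 3.45 and 2.52 CPM (adjusted p = 0.861), and HOXC9 was 3.69 and 1.38 CPM against 0.398, 0.547, 1.70 and 1.21 CPM (0.104). HOXC8, HOXC10 and HOXC12 were not tested, with 13, 3 and 5 counts in the 2 recruitment libraries against 31, 2 and 2 in the 4 controls. Their scaled ratios were 0.921 (0.442 to 1.81), 3.30 (0.377 to 39.5) and 5.49 (0.899 to 57.7).

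With CRISPRi 0 of 13 HOX genes tested passed the edgeR test, beside 2.77% of all genes tested (0.831% higher and 1.94% lower). At an unadjusted p of 0.05 there were 5, HOXB3, HOXB7, HOXB13, HOXC4 and HOXD4, all with lower levels under recruitment. The share of all genes at that threshold was not computed, so the 5 are listed without weight. At an adjusted p of 0.05 the DESeq2 Wald test gave 0 of 22 HOX genes tested. Summed over the 38 genes, the level was 20.5 and 18.8 CPM with recruitment and between 25.4 and 29.1 CPM in the controls, 0.724 times as high, and the groups did not overlap. Both recruitment libraries were below all 4 controls for 7 of the 37 detected genes (HOXB2, HOXB3, HOXB7, HOXC4, HOXD1, HOXD4 and HOXD9), against 10.2% of all detected genes, and above them for 0, against 9.24%.

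HOXC4 had the smallest unadjusted p of these, with 2.30 and 2.02 CPM under dCas9-KRAB recruitment against 3.31, 5.04, 3.24 and 3.68 CPM in the controls (LTR5HS Sa, then nontarget Sp), a log2 fold change of -0.79 ± 0.27 (adjusted p = 0.208). HOXD4 was 2.58 and 2.36 CPM against 3.88, 3.80, 3.45 and 4.63 CPM (-0.67 ± 0.23, 0.217), and HOXB7 0.843 and 0.877 CPM against 2.00, 1.24, 1.58 and 1.46 CPM (-0.85 ± 0.32, 0.265). HOXB3 was 4.27 and 4.39 CPM against 6.22, 5.20, 5.98 and 6.33 CPM (-0.45 ± 0.19, 0.333). HOXB13 was 0.0562 and 0.337 CPM against 0.342, 0.233, 1.08 and 0.847 CPM (-1.84 ± 0.81, 0.361), and its groups overlapped. HOXC4, HOXD4, HOXB7 and HOXB3 are among the 5 HOX genes with the highest control TPM. HOXD11, HOXA11 and HOXD13, which rose with CRISPRa, were at 0.31 to 1.71 CPM in dCas9-KRAB cells with log2 fold changes of 0.63 ± 0.42, 0.63 ± 0.44 and -0.02 ± 0.50. Most HOX genes were close to the count floor here, where a decrease was not detectable at this depth.

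The difference between the fusions was tested as an interaction over all 12 libraries. It passed for 18 of the 28 HOX genes tested, 17 more positive with CRISPRa and 1, HOXC13, more negative, beside 21.0% of all genes (11.5% and 9.53%). All 9 HOXD genes were among them, led by HOXD11 (6.17 ± 0.55, adjusted p = 4.29e-06), HOXD9 (5.84 ± 0.54, 6.00e-06), HOXD10 (7.87 ± 0.76, 8.50e-06) and HOXD4 (3.35 ± 0.33, 8.67e-06), as were HOXA11, HOXA13, HOXB4, HOXB7, HOXB8, HOXB9, HOXB13 and HOXC4. The count filter of this fit, too, could be passed through the dCas9-VPR recruitment libraries alone, where many HOX genes were high. How many entered in that way was not counted, so the number that passed is not separate evidence of a rise. HOXC4, HOXB7 and HOXD4 moved apart between fusions from levels that were well above the floor in all libraries. HOXB8 had 0 counts in both dCas9-KRAB recruitment libraries, and its fitted difference depends on the prior count. HOXA9 and HOXA10, at or near 0 with dCas9-KRAB, rose with CRISPRa but did not pass the interaction (adjusted p = 0.827 and 0.465). The same held for HOXA3 (0.0883), HOXC5 (0.870) and HOXC11 (0.360).

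When single libraries were left out of the interaction fit, 14 of the 18 calls held in every refit. HOXB8 lost its call in 5 of 12 refits (adjusted p up to 0.172, without nontarget Sp dCas9-KRAB replicate 1), HOXC13 in 5 (up to 0.169, without LTR5HS Sp dCas9-KRAB replicate 1), HOXB13 in 3 (up to 0.145, without the same library) and HOXD12 in 3 (up to 0.176, without nontarget Sp dCas9-KRAB replicate 2). The other libraries concerned were both LTR5HS Sp libraries with dCas9-VPR, both with dCas9-KRAB, LTR5HS Sa dCas9-VPR replicate 1 and LTR5HS Sa dCas9-KRAB replicate 1. Several sizes rested on the few counts of the dCas9-KRAB recruitment line: without its replicate 1, HOXA13 was 4.69, HOXB9 6.53, HOXB13 2.28, HOXD12 8.74 and HOXD13 4.27. Without its replicate 2, HOXA13 was 6.88, HOXB13 4.79 and HOXD12 5.27. Without LTR5HS Sp dCas9-VPR replicate 1, HOXB13 was 2.52 and HOXD1 3.97. HOXD10 was 8.56 without LTR5HS Sa dCas9-VPR replicate 1, and HOXD12 was 7.75 without nontarget Sp dCas9-VPR replicate 1 and 5.30 without nontarget Sp dCas9-KRAB replicate 2. HOXB8 was 7.35 without nontarget Sp dCas9-KRAB replicate 1 and 8.95 without replicate 2.

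The lines also differed without recruitment. Between dCas9-VPR and dCas9-KRAB controls, 4 libraries each, 10 of 28 HOX genes passed, 8 higher and 2 lower with dCas9-VPR, beside 55.4% of all genes (27.1% and 28.3%). HOXA9, HOXA10, HOXB3, HOXB4, HOXB9, HOXC5, HOXC6 and HOXC9 were higher in the dCas9-VPR controls, and HOXD1 and HOXD9 were lower. The 4 libraries of a fusion come from 2 lines and are not 4 independent replicates of the fusion. The dCas9-VPR LTR5HS Sa line overlapped the dCas9-KRAB controls for HOXA9, HOXB3 (5.09 and 7.16 CPM), HOXC5 (0.0443 and 0), HOXC6 (0.620 and 0.149) and HOXC9 (0.398 and 0.547). It lay above them for HOXB4 and HOXB9. For HOXA10 it held 3 and 2 counts (0.133 and 0.0994 CPM), at or below the count floor, against up to 2 counts in a dCas9-KRAB control library. The dCas9-VPR nontarget Sp line held 13 and 13 counts of HOXA10. HOXB4 was 0.646 to 0.841 CPM in dCas9-VPR controls and 0.0571, 0.155, 0.415 and 0.308 CPM in dCas9-KRAB controls (log2 fold change 1.52 ± 0.37, adjusted p = 0.0038), and HOXD1 was 0.0497 to 0.206 against 0.400 to 0.685 CPM (-1.81 ± 0.47, 0.0054). Neither pair of ranges overlapped. The dCas9-KRAB controls held 0.0616 to 0.285 CPM of HOXC6, 0.125 to 0.399 of HOXC9 and 0.155 to 0.342 of HOXB9, and log2 fold changes were 3.67 ± 0.98, 1.92 ± 0.55 and 1.95 ± 0.44. HOXA10 was at 0 to 0.083 CPM there (3.35 ± 0.87), HOXB3 at 5.20 to 6.33 CPM (0.88 ± 0.30) and HOXD9 at 0.706 to 0.913 CPM (-0.95 ± 0.34). HOXA9 had 9 counts in dCas9-VPR controls, all in the nontarget Sp line, and 0 in dCas9-KRAB controls. Its ratio was 4.42 with a floor of 3 counts over the group in place of the 0, and its counting interval began at 2.91. HOXC5 had 10 counts against 1, a ratio of 14.7 with a counting interval from 2.09 to 639.

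Within the dCas9-VPR controls, the nontarget Sp line was above the LTR5HS Sa line for 4 HOX genes that passed, beside 4.51% of genes overall (2.61% in that direction and 1.90% in the other). HOXB3, at 13.8 and 17.6 against 5.09 and 7.16 CPM, differed by a log2 value of -1.34 ± 0.22 (LTR5HS Sa minus nontarget Sp, adjusted p = 0.0144), and HOXB2 by -1.21 ± 0.21 (0.0165). HOXA10 differed by -2.45 ± 0.46 (0.0216) and HOXC6, at 3.45 and 2.52 against 0.620 and 0.149 CPM, by -2.88 ± 0.68 (0.0483). Each of the 4 calls was lost in at least 2 of the refits that left out 1 library, the highest adjusted p being 0.114 for HOXB3, 0.121 for HOXB2, 0.152 for HOXA10 and 0.219 for HOXC6. The libraries concerned were both LTR5HS Sa libraries and nontarget Sp replicate 2, and for HOXC6 also nontarget Sp replicate 1. HOXC6 was -4.25 without LTR5HS Sa replicate 1 and -2.24 without replicate 2. With the replicate number as a block 7 HOX genes passed in place of 4, the additional ones being HOXA9 (adjusted p = 0.0271), HOXB9 (0.0077) and HOXC9 (0.0158). In dCas9-KRAB controls 0 passed by edgeR, beside 0.567% of genes (0.258% higher and 0.309% lower with LTR5HS Sa). The DESeq2 Wald test also gave 0 at an adjusted p of 0.05. At an unadjusted p of 0.05 edgeR gave 2, and the share of all genes at that threshold was not computed.

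**Figure D4:**
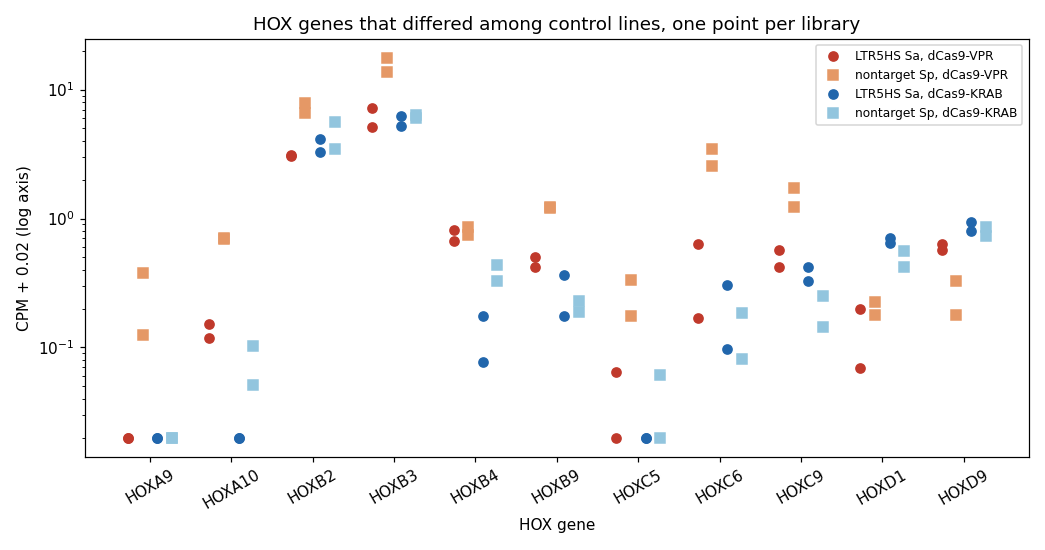
CPM (plus 0.02, log axis) in each of the 8 control libraries for the 10 HOX genes that differed between the fusions' control lines and for HOXB2, circles for LTR5HS Sa and squares for nontarget Sp, reds for dCas9-VPR and blues for dCas9-KRAB. The light red squares (dCas9-VPR nontarget Sp) sit above the other points for HOXA9, HOXA10, HOXB2, HOXB3, HOXB9, HOXC5, HOXC6 and HOXC9.

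Of the differences between fusions, those of HOXA9, HOXB3, HOXC5 and HOXD9 were lost when single libraries were left out. HOXA9 was lost in 7 of 12 such refits (adjusted p up to 0.134, and a log2 value of 2.80 in place of 4.41, without nontarget Sp dCas9-VPR replicate 1), and HOXC5 in 5 (up to 0.143, without nontarget Sp dCas9-KRAB replicate 2). HOXB3 was lost in 3 (up to 0.103) and HOXD9 in 4 (up to 0.0833), both highest without nontarget Sp dCas9-VPR replicate 2. The libraries concerned were both nontarget Sp libraries of each fusion, both LTR5HS Sa dCas9-KRAB libraries and, for HOXA9, both LTR5HS Sp dCas9-VPR libraries. HOXC5 was 4.54 without nontarget Sp dCas9-KRAB replicate 1, 2.40 without replicate 2 and 2.33 without nontarget Sp dCas9-VPR replicate 2. HOXA10 was 3.94 without nontarget Sp dCas9-KRAB replicate 1, and HOXC6 was 3.05 without nontarget Sp dCas9-VPR replicate 1. With the replicate block HOXA9 was lost (adjusted p = 0.0504) and HOXD10 (-1.32 ± 0.52, 0.0465) and HOXD11 (-1.03 ± 0.36, 0.0260) passed. Cell state markers moved with the fusion too. All 9 embryonal carcinoma markers, POU5F1, SOX2 and NANOG among them, were lower in dCas9-VPR controls, beside 55.4% of all genes that differed. They summed to 999 to 1886 CPM against 3831 to 4235 CPM in dCas9-KRAB controls, NANOG averaging 2.38 against 151 CPM. Of 4 mesoderm markers tested MIXL1, MEOX1 and HAND1 were higher in dCas9-VPR controls, HAND1 averaging 203 against 9.33 CPM. Higher too were all 3 endoderm markers tested (GATA4, GATA6 and FOXA2) and, of 3 trophoblast markers, GATA3. Of 6 neural markers NEUROG2, TUBB3 and MAP2 were lower. Their part in the HOX differences was not tested.

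Some markers moved with CRISPRa as well, where 28.0% of all genes tested passed. Of the embryonal carcinoma markers, SOX2 fell (130 and 173 CPM against 427, 448, 273 and 290 CPM) and the other 8 did not pass, the list summing to 1063 and 1150 CPM with recruitment and 999 to 1886 CPM in the controls. Of 5 mesoderm markers in the table EOMES and MEOX1 rose, of 5 endoderm markers GATA6, and of 5 trophoblast markers CDX2 and GATA3, while of 6 neural markers TUBB3 fell. EOMES rose to 5.13 and 3.30 CPM from 0.149 to 0.316 CPM, and both EOMES and MEOX1 passed the count filter through the recruitment libraries alone. The trophoblast marker TFAP2A, at 104 and 108 CPM with recruitment against 334, 214, 180 and 107 CPM, had a log2 fold change of -0.97 ± 0.38 with CRISPRa (adjusted p = 0.0956), and the endoderm marker FOXA2 one of -1.19 ± 0.59 (0.170). Both were more negative with CRISPRa than with CRISPRi by the interaction (TFAP2A -2.04 ± 0.45, adjusted p = 0.0056, and FOXA2 -2.59 ± 0.85, 0.0468). The endoderm list summed to 10.1 and 10.8 CPM with recruitment and 4.21 to 6.89 CPM in the controls, the mesoderm list to 187 and 232 against 150 to 283 CPM, the trophoblast list to 141 and 147 against 121 to 343 CPM, and the neural list to 135 and 156 against 174 to 271 CPM. SOX17, AFP and T stayed at or below 0.266 CPM in all libraries and CGA at or below 0.0571. Their part in the HOX result was not tested. With CRISPRi, TFAP2A and GATA3 rose, the trophoblast list summing to 310 and 351 CPM against 130 to 188 CPM.

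Non-coding RNAs of the clusters were read as well. Of the 23 present, 8 were tested, 7 rose and 0 fell with CRISPRa, beside 15.7% of all genes that rose. Of the 8, HOTAIR, HOXA10-AS, HOXA11-AS and HOXD-AS2 passed the count filter through the recruitment libraries alone, where they were high, and of the other 4, 3 rose. HOXD-AS2 was 16.2 and 18.2 CPM with recruitment against 0.398, 0.0994, 0.257 and 0.263 CPM (6.03 ± 0.31, adjusted p = 8.14e-06), and HOXA11-AS 12 and 10.5 CPM against 0.177, 0.149, 0.206 and 0.263 CPM (5.80 ± 0.25, 4.43e-06). HAGLR was 19 and 12.1 CPM against 1.09 to 2.78 CPM (3.17 ± 0.36), and HAGLROS 4.74 and 4.68 against 0.547 to 1.15 CPM (2.40 ± 0.29). HOTAIR, HOTAIRM1 and HOXA10-AS also rose. Their exons lie on the strand opposite to HOX genes in several places (HOXA11-AS over HOXA11, HOXD-AS2 over HOXD8 and HOXD3, HAGLR over HOXD1 and HOXD3), and the library protocol describes no strand marking, so that reads of a gene and its antisense partner cannot be told apart. With CRISPRi 0 of 4 passed (edgeR).

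Some homeobox genes related to HOX were tested too. EVX1, which lies beside HOXA13, had 359 counts with recruitment and 3 in the controls, a ratio of 263 with a counting interval from 89.2 to 1281. CDX2, an activator of HOX genes in the trunk and a trophoblast marker, was 11.9 and 10.6 CPM against 0.708, 0.497, 1.65 and 0.578 CPM (3.72 ± 0.39, adjusted p = 0.00025). Both rose, out of 3 ParaHox and flanking homeobox genes tested and 8 in the table, beside 15.7% of all genes, and EVX1 passed the count filter through the recruitment libraries alone. With CRISPRi, 0 of the 2 tested passed. Of the 9 TALE cofactors, homeodomain proteins that bind DNA together with HOX, MEIS3 (1.26 ± 0.15) and MEIS2 (0.91 ± 0.10) rose and PBX3 (-0.58 ± 0.17) fell with CRISPRa, the list having a median log2 fold change of -0.03. None passed with CRISPRi.

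In the retinoic acid pathway, 4 of 17 genes tested rose and 1 fell with CRISPRa, a share of 29.4% beside 28.0% of all genes tested (15.7% higher and 12.3% lower). The median log2 fold change was 0.53. CRABP2, which carries retinoic acid to its receptors, was 296 and 335 CPM with recruitment against 102, 123, 105 and 128 CPM (1.47 ± 0.12, adjusted p = 7.35e-05). The receptors RXRG (2.48 ± 0.23) and RARA (1.51 ± 0.15) rose, as did ALDH1A2, which makes retinoic acid, to 1.10 and 0.798 CPM from 0 to 0.257 CPM, which passed the count filter through the recruitment libraries alone. DHRS3, which turns retinal back to retinol, was the gene of 18 tested that rose with CRISPRi (1.08 ± 0.21, adjusted p = 0.0243). It was not called with CRISPRa (0.40 ± 0.17, 0.122).

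Chromatin regulators known to act on the clusters are read here beside the 28.0% of all genes that passed with CRISPRa. Of 18 Polycomb genes 1 rose and 1 fell with CRISPRa (CBX7, 1.20 ± 0.17, and PHF19, -1.88 ± 0.17), and 0 passed with CRISPRi, the median log2 fold changes being -0.26 and -0.03. PHF19, a cofactor of the enzyme that places H3K27 methylation, was 7.06 and 6.86 CPM with recruitment against 25.9, 29.6, 22.7 and 25.2 CPM. Of 10 MLL/trithorax genes and H3K27 demethylases, which counter Polycomb, KMT2A (0.53 ± 0.09), ASH1L (0.53 ± 0.11) and WDR5 (0.55 ± 0.15) rose with CRISPRa, 0 fell, and 0 passed with CRISPRi.

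The genes that flank the clusters were read as well. Of 25 in the table, 22 were tested with CRISPRa, 3 rose and 3 fell, a share of 27.3% beside 28.0% of all genes, and the median log2 fold change was -0.09. JAZF1, which follows TAX1BP1 on chromosome 7, rose to 57.6 and 61.1 CPM from 11.8, 10.0, 20.3 and 18.2 CPM (1.99 ± 0.25, adjusted p = 0.00072). TAX1BP1, whose intron holds the guide stretch nearest to HOXA, was 158 and 146 CPM against 97.3, 80.4, 139 and 111 CPM with CRISPRa (0.51 ± 0.19, 0.0754). With CRISPRi it fell to 67.6 and 52.8 CPM from 122, 137, 163 and 147 CPM (-1.23 ± 0.15, 0.0016), the one gene of the 21 tested that passed. CALCOCO1 near HOXC (0.66 ± 0.13, 0.0065) and SKAP2 beside HOXA (0.73 ± 0.21, 0.0354) rose. ATP5G2 near HOXC (-0.38 ± 0.10), CBX1 near HOXB (-0.31 ± 0.09) and HIBADH near HOXA (-0.44 ± 0.14) fell.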

How the data were processed

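NCCIT lines were made and polyA RNA was sequenced (2 libraries per line, 12 in all) by the authors. The values are deposited raw counts per gene, with gene length in bp, without normalization. The submitters' processing notes name CASAVA 1.8, cutadapt 1.8.1, HISAT2 2.1.0 and featureCounts 1.4.6-p2 with hg38. The gene annotation and strand setting are not given in the sources used here. Of 26641 genes, 28 carry names that read as dates.

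Genes were tested over the whole table with edgeR 4.0.16 (R 4.3.3; filterByExpr, TMM, quasi-likelihood F-test, Benjamini-Hochberg, threshold 0.05). SE is the log2 fold change divided by the square root of F. CPM uses TMM library sizes and TPM the deposited lengths. Ratios of few counts carry exact binomial intervals. The pipeline was tested on simulated data. DESeq2 1.42.0 was an alternative, with other filters, library scalings, thresholds, control arrays, thinned counts and left-out libraries. Equal replicate numbers were checked as pairs. Within a fusion, replicate differences correlated across genes between all pairs of lines (r from 0.180 to 0.375 over 16673 genes). Across fusions r lay between 0.0572 and 0.332.

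Guides were searched in hg38 and genes placed with GENCODE 44, in Python 3.11.15. Per-library values are given for HOX genes that passed in a comparison and the 8 with the highest control TPM, and for some others chosen after their values were seen. Values of some genes counted in the lists are not reported here. Members and gene lists were chosen with earlier results of these data known.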

Additional observations from a re-analysis of the deposited data

Results flagged for a closer look

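In 4 of 53 groups of 4 control libraries checked, 1 library stood apart from the others by Dixon's criterion (critical value 0.829), which chance alone passes in about 1 of 20 groups. These were HOXB7 at 1.69 CPM and HOXD8 at 0.199 CPM in LTR5HS Sa dCas9-VPR replicate 2, HOXC5 at 0.0415 CPM in nontarget Sp dCas9-KRAB replicate 1 and HOXD12 at 0.0515 CPM in nontarget Sp dCas9-VPR replicate 1. The last value, and that of HOXC5, is a single count.

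For 18 HOX genes the effect of recruitment differed between dCas9-VPR and dCas9-KRAB by the interaction term (edgeR). The differences, CRISPRa minus CRISPRi in log2 fold change, were 4.67 for HOXD1, 2.73 for HOXD3, 3.35 for HOXD4, 5.98 for HOXD8, 5.84 for HOXD9, 7.87 for HOXD10, 6.17 for HOXD11, 6.04 for HOXD12 and 3.47 for HOXD13. In HOXA they were 4.47 for HOXA11 and 5.49 for HOXA13. In HOXB they were 4.54 for HOXB4, 2.07 for HOXB7, 8.32 for HOXB8, 5.44 for HOXB9 and 3.15 for HOXB13. In HOXC they were 1.89 for HOXC4 and -2.19 for HOXC13.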

How the results depend on the processing

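The fold changes of HOX genes that passed kept their direction under every alternative run that gave a value. With CRISPRa, 23 HOX genes passed, and 5 to 25 did so over the alternatives. The lowest count, 5, came from requiring at least 10 counts in every library, which left 7 HOX genes to test. With that filter 3 of 5 tested HOX genes passed the interaction (18 in the reported fit), 1 of 5 the comparison of control lines between fusions (10) and 2 of 7 the comparison of the dCas9-VPR control lines (4). A threshold of 0.01 left 6 HOX genes between control lines of the fusions and 0 between the dCas9-VPR control lines. Leaving out each library gave 17 to 22 HOX genes with CRISPRa, 14 to 19 for the interaction, 6 to 13 between control lines of the fusions and 0 to 4 between the dCas9-VPR control lines, and in every such refit 17, 14, 6 and 0 of the respective genes kept their call. The replicate block gave 7 HOX genes in place of 4 between the dCas9-VPR control lines, 23 with CRISPRa, 18 for the interaction, 0 with CRISPRi and 11 between control lines of the fusions, of which 9 were shared with the reported 10. It changed no other HOX call. CRISPRi and the dCas9-KRAB control lines gave 0 HOX genes under all alternatives. The nearest guide stretches did not change with at least 1 or 4 different guides. Most HOX genes held fewer than 10 counts in at least 1 library, which limits any decrease that could be seen.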
